A study of Mus musculus with 8 samples.

Results

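The prolyl peptidases are enzymes that cut peptide chains next to a proline, a bond that most other proteases leave intact. All 7 genes chosen by name for this account, Dpp4, Fap, Dpp7, Dpp8, Dpp9, Prep and Prcp, were found among the 27179 genes of the count table, and all 7 were among the 15583 genes with enough reads to be tested. The libraries came from C57BL/6 mice with the Eml4-Alk translocation in the lung, a model of non-small cell lung cancer in which an adenovirus carrying Cas9 and a pair of guide RNAs rearranges Eml4 and Alk in infected cells. Tumours were dissected from the surrounding tissue and both were kept for dissociation, and whether they were pooled before the sort is not stated. Mice aged 18 to 22 weeks, 11 to 12 weeks after tumour induction, all received 4.5 nmol of QZ1-(PEG2K), a quenched fluorescent probe that lights up once a protease cuts its peptide linker, and their lungs were taken 2 h later. Live cells without surface CD45 and CD11b were sorted, with the probe signal gated against EpCAM, into 4 QZ1-hi libraries (labelled QZ1+) and 4 QZ1-lo libraries (labelled QZ1-), each from at least 100000 cells. All mice carried tumours and all received the probe, and no library from healthy lung was analysed here.

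Dpp4 and Fap encode sister proteases anchored in the plasma membrane. DPP4, also known as CD26, removes dipeptides from the amino end of chemokines and peptide hormones and is found on T cells, epithelia, endothelia and subsets of fibroblasts, whereas FAP adds an endopeptidase activity on gelatin-like chains and is best known as a marker of activated fibroblasts in tumours and healing tissue. DPP8 and DPP9 are their cytosolic relatives and restrain inflammasome sensors of the NLRP1 family, DPP7 works inside vesicles and lysosomes, PREP is a cytosolic oligopeptidase, and PRCP is a lysosomal carboxypeptidase that removes the residue after a proline at the carboxyl end. The sort asked which cells carried protease activity on the probe's linker. The values below are of transcripts, not of enzyme activity.

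Dpp4 and Fap lie side by side on mouse chromosome 2 of the GRCm38 build, both on the minus strand, Dpp4 at chr2:62330073-62412231 and Fap at chr2:62500943-62574075. The 88711 bases between them hold Gcg, the gene for glucagon and GLP-1, themselves DPP4 substrates. Dpp7 is at chr2:25352276-25356359 on the minus strand, far from that pair. The other members are on separate chromosomes, Dpp8 at chr9:65032414-65082651 on the plus strand, Dpp9 at chr17:56186807-56218905 on the minus strand, Prep at chr10:45067203-45167198 on the plus strand and Prcp at chr7:92874470-92934583 on the plus strand. Of 6 neighbouring genes listed, none was called. Gcg had 1 count over all 8 libraries, Kcnh7, Slc4a10 and Tbr1 were too low to test, and neither Ifih1, an RNA sensor next to Fap (log2 fold change -0.01, SE 0.12), nor Gca (-0.48, SE 0.32) was called.

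The stretches before the start sites of Dpp4 and Dpp8 are shown because both genes were called higher in QZ1-hi cells and their windows differ in kind. RefSeq (GRCm38.p6) windows of 250 bases before the start were found for 5 of the 7 members, and each sequence below is the part of its window outside every annotated exon of the gene, read 5′ to 3′ on the gene's strand, Dpp4 from chr2:62412232-62412481 and Dpp8 from chr9:65032208-65032413. Capitals mark CACGTG, a palindromic E-box.

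Dpp4: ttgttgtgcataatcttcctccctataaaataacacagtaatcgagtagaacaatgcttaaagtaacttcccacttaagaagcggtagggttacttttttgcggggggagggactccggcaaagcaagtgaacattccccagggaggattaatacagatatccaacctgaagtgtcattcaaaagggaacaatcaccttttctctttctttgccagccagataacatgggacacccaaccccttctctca

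Dpp8: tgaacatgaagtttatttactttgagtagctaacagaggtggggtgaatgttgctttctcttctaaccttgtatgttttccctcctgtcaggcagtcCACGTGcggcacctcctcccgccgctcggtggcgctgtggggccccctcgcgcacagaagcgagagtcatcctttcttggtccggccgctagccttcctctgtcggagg

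The Dpp4 window held 4 CpG dinucleotides and 43.6% G and C, against a median of 6 CpG over all 32851 windows, whereas the Dpp8 window held 17 CpG and 59.6% G and C. A GC box (GGGCGG on either strand) was in 32.7% of all windows, 0 times in Dpp4 and Dpp9, 1 time each in Dpp7 and Dpp8 and 2 times in Prcp, that of Dpp8 lying in an annotated exon beyond the stretch shown. CACGTG was in 6.02% of all windows and in those of Dpp7 and Dpp8. These are matches of letters, not sites of binding.

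Of the 7 prolyl peptidase genes, 3 were called higher in QZ1-hi cells (Dpp4, Prcp and Dpp8), 0 were called lower and 4 were not called. A gene was called when its adjusted p in edgeR's quasi-likelihood test, corrected by Benjamini-Hochberg over all 15583 genes, was under 0.05. Across all genes tested 9.88% were called higher and 8.21% lower by the same rule. The median log2 fold change of the 7 members was 0.36 and that of all genes tested was 0.02. Levels are given in CPM, a gene's counts relative to the size of its library, after scaling by the trimmed mean of M values (TMM), and fold changes are of QZ1-hi over QZ1-lo. A lower transcript level in a sorted pool can come from fewer cells of a type or from less RNA per cell, which cannot be told apart here.

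The libraries held 18380918 to 26847938 counts, so that 3 counts corresponded to 0.0894 to 0.179 CPM. Genes of the mitochondrial genome and ribosomal RNA took 43.7 to 65.6% of the counts in QZ1-hi and 34.0 to 53.2% in QZ1-lo libraries. With scaling to library size alone the median over all genes moved from 0.02 to -0.44 on the log2 scale, and 882 genes were called higher and 2509 lower in place of 1540 and 1280, so changes below are relative to the bulk of genes. Under that scaling the differences of Dpp7, Dpp8 and Dpp9 turned negative and 1 member, Prep, was called lower while 0 were called higher.

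**Figure D1:**
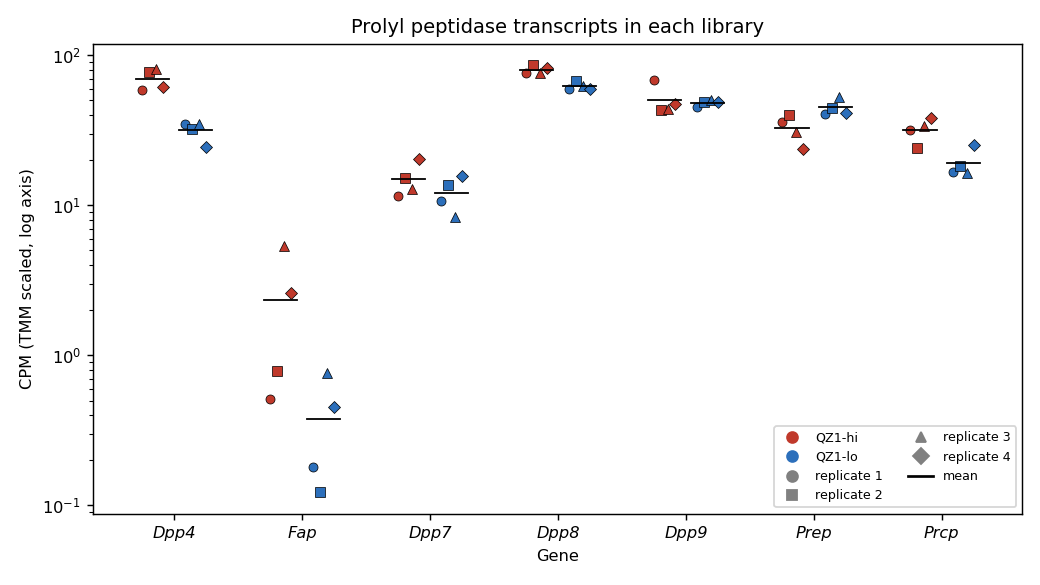
CPM (TMM scaled, log axis) of the 7 prolyl peptidase genes in each library, QZ1-hi in red and QZ1-lo in blue, with a marker shape for each replicate number and a black line at the mean of each population. Dpp4 (58.6 to 80.8 against 24.3 to 34.9 CPM) and Dpp8 separate upward in QZ1-hi, Prep separates downward, and Fap lies lowest and is spread most within each population.

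Dpp4 had the clearest difference of the group. Its levels were 58.6, 77.4, 80.8 and 61.2 CPM in the QZ1-hi libraries, from 1027 to 1567 counts, and 34.9, 32.3, 34.6 and 24.3 CPM in the QZ1-lo libraries, from 594 to 1172 counts. Every QZ1-hi library stood above every QZ1-lo library, with no overlap. The means were 69.5 ± 11.2 and 31.6 ± 4.96 CPM (SD, n = 4 each), a fold change of 2.20 (95% interval 1.73 to 2.80). On the log2 scale the difference was 1.14 (SE 0.16), with an edgeR adjusted p of 0.000738, and Dpp4 ranked 343 by p among all genes tested. A two-sided exact permutation test on the mean log2 CPM gave p = 0.0286, the smallest that 70 assignments of 4 and 4 libraries allow. The log2 fold change stayed between 1.03 and 1.23 when each library in turn was left out, and Dpp4 was called each time. Under library size scaling it was 0.66 and the call was lost (edgeR adjusted p = 0.0737). An antisense gene, Gm13561, overlaps 232 exonic bases of Dpp4, and the strand setting of the counting is not given in the sources used here.

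Measured against the other enzymes of the same library, Dpp4 also stood higher in QZ1-hi cells. The log2 ratio of Dpp4 counts to the summed counts of Dpp7, Dpp8, Dpp9, Prep and Prcp was -1.93, -1.43, -1.29 and -1.79 in QZ1-hi and -2.31, -2.57, -2.46 and -2.97 in QZ1-lo libraries. This ratio does not depend on the scaling between libraries, and 4 of 4 QZ1-hi libraries were above all QZ1-lo libraries. The difference of 0.97, a fold of 1.96, had an exact permutation p of 0.0286 (0.0857 after Benjamini-Hochberg adjustment over the 3 ratios tested, so it missed 0.05 once adjusted).

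Fap, the sister gene, had few reads in every library and the widest spread. It had 12, 16, 93 and 44 counts in the QZ1-hi libraries (0.508, 0.790, 5.38 and 2.62 CPM) and 6, 3, 21 and 11 counts in the QZ1-lo libraries (0.179, 0.122, 0.760 and 0.450 CPM). QZ1-hi replicates 3 and 4 stood well above the rest, QZ1-hi replicate 2 only just above the highest QZ1-lo library, and QZ1-hi replicate 1 fell within the QZ1-lo range. The mean was 2.32 ± 2.24 CPM in QZ1-hi and 0.378 ± 0.292 in QZ1-lo (SD, n = 4 each). The fitted log2 fold change was 2.60 (SE 0.87, 95% interval 0.68 to 4.52), with an edgeR adjusted p of 0.0629, so Fap was not called. The exact permutation p was 0.0571.

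The Fap call turned on single libraries and on the test. It passed without QZ1-hi replicate 1 (log2 fold change 2.94, edgeR adjusted p = 0.038) and without QZ1-lo replicate 3 (3.19, adjusted p = 0.0484), and fell to 1.74 (adjusted p = 0.263) without QZ1-hi replicate 3. With DESeq2 the adjusted p was 0.0104 and Fap was called, whereas limma-voom with sample weights gave an adjusted p of 0.16. The within-library log2 ratio of Fap to the same 5 intracellular enzymes differed by 2.14 (exact permutation p = 0.143), with 2 of 4 QZ1-hi libraries above every QZ1-lo library. Of the 50-base stretches of Fap transcripts, 0.271% also occur in another gene.

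**Figure D2:**
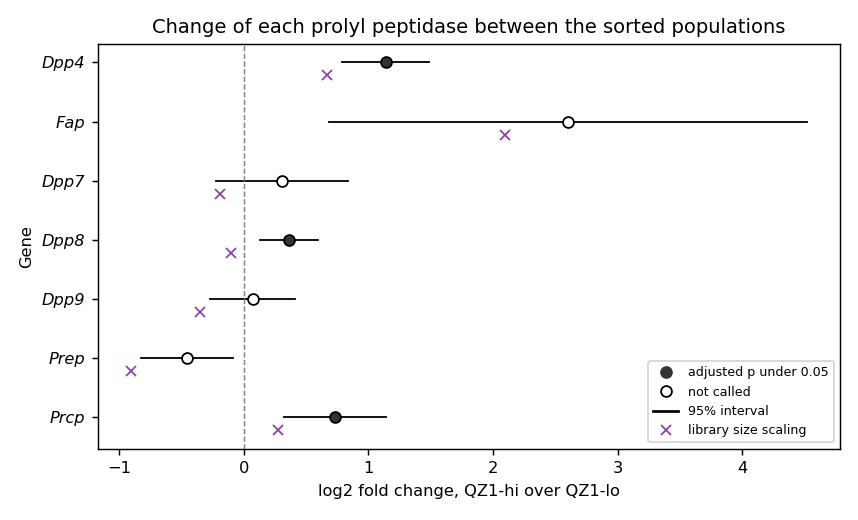
Log2 fold change of QZ1-hi over QZ1-lo for each prolyl peptidase gene (circles, filled where the edgeR adjusted p is under 0.05) with its 95% interval (lines), and the value under library size scaling (crosses). Dpp4, Dpp8 and Prcp are filled, the interval of Fap runs from 0.68 to 4.52, and every cross lies to the left of its circle.

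Prcp, the lysosomal carboxypeptidase, which can cut the terminal phenylalanine from angiotensin peptides and activate plasma prekallikrein, was the other member called with a sizeable difference. Its levels were 31.5, 24.1, 33.9 and 38.1 CPM in QZ1-hi and 16.6, 18.4, 16.5 and 25.3 CPM in QZ1-lo libraries. The populations overlapped by 1 pair, since QZ1-lo replicate 4 was above QZ1-hi replicate 2. The means were 31.9 ± 5.86 and 19.2 ± 4.17 CPM (SD, n = 4 each). The log2 fold change was 0.73 (SE 0.19, 95% interval 0.32 to 1.14), with an edgeR adjusted p of 0.0185. The exact permutation p was 0.0571. The call was lost without QZ1-hi replicate 3 (edgeR adjusted p = 0.0634), QZ1-lo replicate 1 (0.0573) or QZ1-lo replicate 2 (0.0521), and under library size scaling the difference fell to 0.28. Of its 50-base stretches, 1.86% are shared with another gene.

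Of the cytosolic pair Dpp8 was called and Dpp9 was not, and the difference between them, tested as a ratio below, did not pass. Dpp8 was at 75.8, 85.7, 76.4 and 81.6 CPM in QZ1-hi and at 59.3, 67.0, 62.4 and 59.8 CPM in QZ1-lo libraries, with no overlap between the populations. The shift was small and the spread smaller, 79.9 ± 4.70 against 62.1 ± 3.53 CPM (SD, n = 4 each). This gave a log2 fold change of 0.36 (SE 0.10, 95% interval 0.13 to 0.59) with an edgeR adjusted p of 0.0332 and an exact permutation p of 0.0286. The call was lost when any one of 6 of the 8 libraries was left out, namely QZ1-hi replicate 2 (edgeR adjusted p = 0.115) or 3 (0.069) and QZ1-lo replicate 1 (0.0967), 2 (0.0507), 3 (0.0651) or 4 (0.0892), although the log2 fold change stayed between 0.31 and 0.40. Under library size scaling it turned to -0.10. An antisense gene, Gm47350, overlaps 316 exonic bases of Dpp8.

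Dpp9, the closest relative of Dpp8, was at 68.5, 42.9, 43.7 and 47.4 CPM in QZ1-hi and at 45.4, 48.8, 49.97 and 48.9 CPM in QZ1-lo libraries. A single library, QZ1-hi replicate 1, stood above all others, and of the other 3 QZ1-hi libraries replicates 2 and 3 lay below every QZ1-lo library. The log2 fold change was 0.07 (SE 0.16, 95% interval -0.27 to 0.41, edgeR adjusted p = 0.827) and it turned to -0.11 without QZ1-hi replicate 1. The within-library log2 ratio of Dpp9 to Dpp8 was -0.14, -0.997, -0.80 and -0.78 in QZ1-hi and -0.39, -0.46, -0.32 and -0.29 in QZ1-lo libraries. In 3 of 4 QZ1-hi libraries it was below every QZ1-lo library, again with QZ1-hi replicate 1 as the exception, and the mean difference of -0.32 had an exact permutation p of 0.143.

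Prep, the cytosolic oligopeptidase of short peptides, was the only member whose QZ1-hi libraries all fell below every QZ1-lo library. It was at 36.0, 40.1, 30.8 and 23.8 CPM in QZ1-hi and at 40.8, 44.6, 52.8 and 41.4 CPM in QZ1-lo libraries. Its means were 32.7 ± 7.05 and 44.9 ± 5.54 CPM (SD, n = 4 each). The log2 fold change was -0.46 (SE 0.17, 95% interval -0.82 to -0.09) with an exact permutation p of 0.0286, but the edgeR adjusted p was 0.0869 and Prep was not called. It passed without QZ1-hi replicate 2 (-0.59, edgeR adjusted p = 0.0402) and under library size scaling (-0.90, adjusted p = 0.0207). Among all genes tested 11.9% had every QZ1-hi library above every QZ1-lo library and 10.7% had the reverse order, against 2 members (Dpp4 and Dpp8) and 1 member (Prep) here.

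Dpp7, the vesicular dipeptidyl peptidase, was at 11.5, 15.1, 12.9 and 20.3 CPM in QZ1-hi and at 10.8, 13.6, 8.36 and 15.7 CPM in QZ1-lo libraries. The populations overlapped in part: QZ1-hi replicate 4 stood above every QZ1-lo library, QZ1-lo replicates 1 and 3 stood below every QZ1-hi library, and the others were interleaved. The log2 fold change of 0.30 (SE 0.24, 95% interval -0.22 to 0.83) was not called (edgeR adjusted p = 0.462).

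Levels were compared between the genes only per kb of transcript. In QZ1-lo libraries Dpp9 (14.3 ± 0.588 CPM per kb) and Dpp8 (12.9 ± 0.734) were the most abundant, followed by Dpp7 (7.20 ± 1.92), Prcp (6.46 ± 1.40) and Dpp4 (5.99 ± 0.942), whose ranges overlapped, then Prep (4.11 ± 0.507) and Fap (0.137 ± 0.106). In QZ1-hi libraries Dpp8 (16.6 ± 0.977) and Dpp9 (15.0 ± 3.58) were again the highest 2, and Dpp4 (13.2 ± 2.13) stood next to them, ahead of Prcp (10.8 ± 1.98), Dpp7 (8.90 ± 2.30), Prep (2.99 ± 0.645) and Fap (0.845 ± 0.814). In QZ1-hi libraries the ranges of neighbours overlapped from Dpp8 down to Dpp7, and Prep and then Fap stood below without overlap. In QZ1-lo libraries Dpp9 overlapped with Dpp8, a gap separated both from Dpp7, neighbours from Dpp7 down to Prep overlapped, and Fap stood below all. Lengths were those of exons in RefSeq-linked transcripts, from 1682 bases for Dpp7 to 10933 for Prep, and an isoform of another length would shift a gene's place.

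As a share of the summed level per kb of all 7 genes, Dpp4 made up 16.3, 22.2, 22.6 and 16.4% in the QZ1-hi libraries and 13.8, 11.6, 13.1 and 8.65% in the QZ1-lo libraries. Prep went the other way, with 8.05 ± 1.12% on average in QZ1-lo libraries against 4.40 ± 1.05% in QZ1-hi (SD, n = 4 each). Fap reached its highest share, 2.87%, in QZ1-hi replicate 3 and was at or below 1.35% elsewhere. Dpp8 took almost the same share in both, 24.3 ± 1.74% and 25.3 ± 1.36%. Shares of 1 total depend on each other, so these are given without a test.

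**Figure D3:**
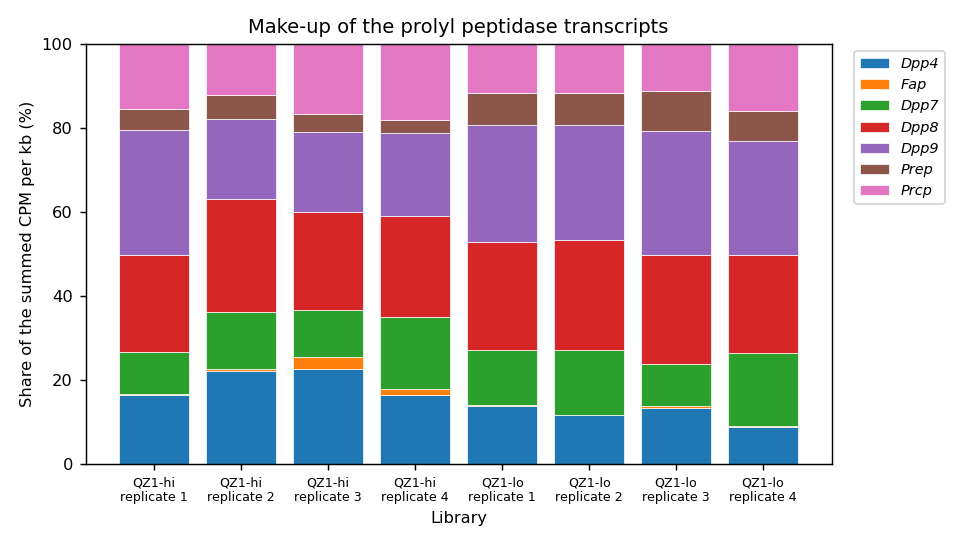
Stacked bars of each gene's share (%) of the summed CPM per kb of the 7 prolyl peptidase genes in each of the 8 libraries. The Dpp4 segment runs from 16.3 to 22.6% in QZ1-hi and from 8.65 to 13.8% in QZ1-lo libraries, and the Prep segment is thinner in every QZ1-hi library.

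Among 8 other peptidases listed as relatives, most of which act on or near proline, 7 were tested, 1 was called higher (Xpnpep2) and 0 lower, with a median log2 fold change of -0.16. Over all genes tested 9.88% were called higher and 8.21% lower, shares that are also the background for the lists below. XPNPEP2 is a membrane-anchored aminopeptidase that removes an amino-terminal residue preceding a proline, and it can inactivate bradykinin. Xpnpep2 was at 3.39, 9.83, 4.57 and 1.85 CPM in QZ1-hi and at 0, 0.976, 0.543 and 0.164 CPM in QZ1-lo libraries. All QZ1-hi libraries were above all QZ1-lo libraries, with 389 counts against 43 in all. Its log2 fold change was 3.56 (SE 0.90, edgeR adjusted p = 0.0183), and the call was lost without QZ1-hi replicate 2 (2.94, adjusted p = 0.0734).

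Its soluble and mitochondrial counterparts Xpnpep1 (log2 fold change 0.33, edgeR adjusted p = 0.223) and Xpnpep3 (-0.23, 0.578) were not called, and Xpnpep1 passed only when QZ1-hi replicate 2 was left out (0.45, 0.0454). Prepl, a relative of Prep, had all 4 QZ1-hi libraries below all 4 QZ1-lo libraries, as Prep did, at 12.2 to 14.0 against 14.1 to 19.0 CPM, but was not called either (-0.39, SE 0.16, edgeR adjusted p = 0.115). That order held for 10.7% of all genes tested. Apeh (-0.04), which releases acetylated amino acids, and Pepd (-0.16), the prolidase that splits dipeptides ending in proline, were not called, with 95% intervals of -0.38 to 0.30 and -0.52 to 0.19. The enzymatically inactive relatives Dpp6 and Dpp10 were almost absent, Dpp10 with 1 count in all. Dpp6 (log2 fold change -1.33, edgeR adjusted p = 0.545) had 17 counts in QZ1-hi, 16 of them in replicate 4, and passed without that library (-4.82, adjusted p = 0.0368).

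The chemokines that DPP4 trims were split in direction. Of 7 listed, 6 were tested, 2 were called higher and 1 lower. Cxcl12, the chemokine that holds CXCR4-bearing cells near stroma, was at 209, 133, 170 and 108 CPM in QZ1-hi and at 13.8, 14.2, 21.4 and 9.33 CPM in QZ1-lo libraries, with no overlap and a log2 fold change of 3.40 (SE 0.27, edgeR adjusted p = 0.000144). Ccl11, eotaxin, was at 10.1 to 28.6 against 0.205 to 1.01 CPM (4.75, SE 0.45, edgeR adjusted p = 0.000222). Both are chemokines that stromal cells are known to make, and the paper also reports strong Cxcl12 expression in endothelial cells of Eml4-Alk lungs. Which cells gave these transcripts here was not tested.

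Ccl5, a chemokine of T cells and other leukocytes, was at 2.67 to 6.62 CPM in QZ1-hi and at 4.13 to 18.1 CPM in QZ1-lo libraries. It was called lower (log2 fold change -1.37, SE 0.43, edgeR adjusted p = 0.0488), just under the threshold, and lost the call without QZ1-hi replicate 1 (adjusted p = 0.121), 3 (0.105) or 4 (0.126) and without QZ1-lo replicate 1 (0.103), 2 (0.166) or 4 (0.0592). The populations overlapped through QZ1-lo replicate 3. Ccl22 (-1.58, edgeR adjusted p = 0.0664) was not called by edgeR with all libraries. It passed with DESeq2 (adjusted p = 0.00966), under library size scaling (0.00115), with no filter on low counts (0.0421) and without QZ1-lo replicate 3 (-1.92, 0.00506). The interferon-induced Cxcl9 (0.46) and Cxcl10 (0.32) were not called. The hormone and neuropeptide substrates Gcg, Gip, Npy, Pyy, Ghrh and Tac1 were all too low to test, with summed levels under 1 CPM in every library.

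Of the genes listed as DPP4 partners, whose products were not tested for binding to mouse DPP4, Cav1, caveolin-1, was called higher. It was at 93.1 to 209 against 11.6 to 27.3 CPM (log2 fold change 2.82, SE 0.30, edgeR adjusted p = 0.000278). Ada, adenosine deaminase, had a log2 fold change of 2.14 (SE 0.79, edgeR adjusted p = 0.0909) from 316 counts against 105, and was not called. It passed with DESeq2 (adjusted p = 0.0256), with limma-voom (0.0462) and without QZ1-lo replicate 3 (2.89, 0.0372). The collagen genes listed as FAP substrates, Col1a1 (3.26), Col1a2 (3.54) and Col3a1 (3.52), were all called higher with no overlap between populations. They also stand among the fibroblast markers below, so the 2 lists are not separate evidence. Serpinf2 and Fgf21, the other FAP substrates listed, were too low to test.

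Substrates of PREP and PRCP were 0 called of 3 tested, Kng1 (log2 fold change 0.56), Kng2 (0.70, edgeR adjusted p = 0.058) and Klkb1 (-0.26), where Kng1 and Kng2 encode kininogens and Klkb1 prekallikrein. Kng2 passed with DESeq2 (adjusted p = 0.0315), with limma-voom (0.0436), with no filter on low counts (0.0489) and without QZ1-hi replicate 4 (0.90, 0.00887). Agt, Pomc and Tmsb4x, also listed, had too few counted reads to test. Tmsb4x had 26 counts in QZ1-hi and 36 in QZ1-lo libraries, and whether reads of it went uncounted was not tested. The inflammasome genes that DPP8 and DPP9 restrain or that act downstream were 0 called of 5 tested. Gsdmd, the pore-forming gasdermin D, was at 19.9 to 27.2 CPM in QZ1-hi and 15.5 to 19.4 CPM in QZ1-lo libraries without overlap (log2 fold change 0.36, SE 0.15, edgeR adjusted p = 0.148). Of all genes tested 11.9% were separated in that direction. Pycard (0.73, adjusted p = 0.093) passed without QZ1-lo replicate 4 (0.99, adjusted p = 0.0253), and the sensors Nlrp1a (0.09) and Nlrp1b (0.86) and the protease Casp1 (0.35) were not called.

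**Figure D4:**
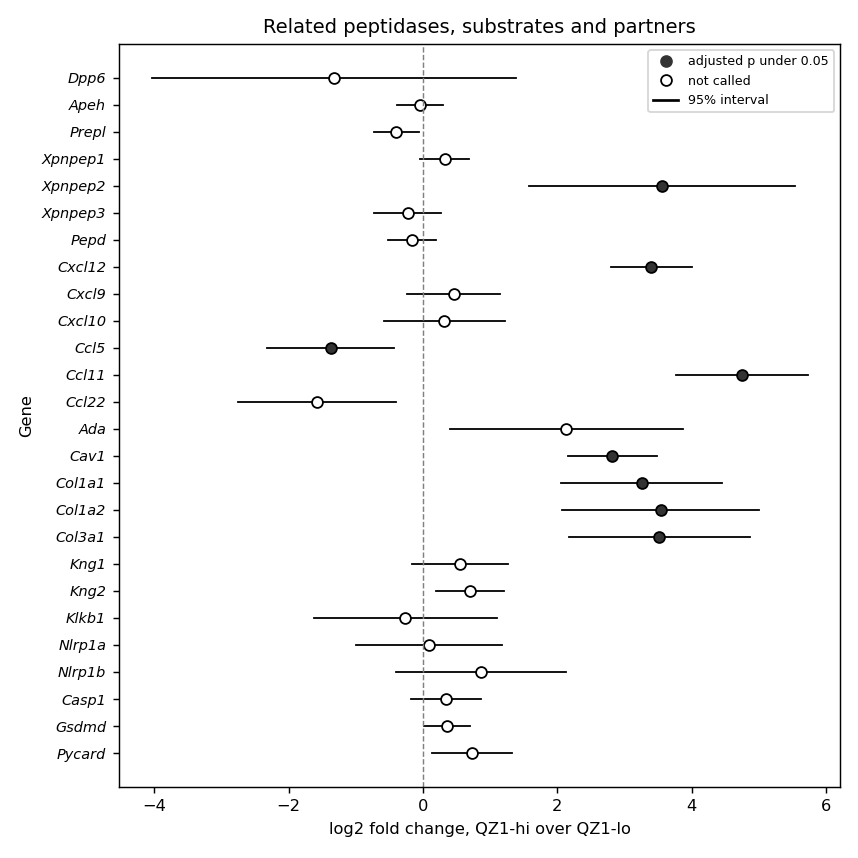
Log2 fold change of QZ1-hi over QZ1-lo (circles, filled where the edgeR adjusted p is under 0.05) with 95% intervals (lines) for the tested relatives, DPP4 substrates and partners, FAP substrates, PREP and PRCP substrates, and inflammasome genes, from top to bottom. The 7 genes called higher are Xpnpep2, Cxcl12, Ccl11, Cav1 and the 3 collagens, at 2.82 to 4.75, and Ccl5 is the only gene called lower.

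Transcripts that mark other cell types also differed between the sorted populations. Endothelial markers were called higher in 8 of 8 genes (summed 918 to 2166 against 65.9 to 288 CPM), fibroblast markers in 6 of 7 (1574 to 3042 against 38.8 to 354 CPM), adventitial fibroblast markers in 3 of 3 (96.0 to 304 against 8.35 to 29.8 CPM), mesothelial markers in 3 of 3 (29.7 to 208 against 5.44 to 27.5 CPM) and pericyte markers in 2 of 6. Epithelial markers were called lower in 5 of 5 genes (586 to 958 against 1570 to 2083 CPM), as were 3 of 3 each for alveolar type 1 and ciliated cells. The sort plotted the probe signal against EpCAM, and the cut-offs stated for both populations were of probe signal alone. Of the alveolar type 2 markers listed here 1 of 5 was called higher. The paper's own type 2 markers also include Aqp5, counted here as type 1, and Epcam and Cdh1, counted here as epithelial. Aqp5 (log2 fold change -0.98), Epcam (-1.17) and Cdh1 (-1.34) were called lower, so type 2 markers did not share a direction. All 3 mesothelial calls were lost without QZ1-hi replicate 2, the library with the sum of 208 CPM (edgeR adjusted p = 0.0722 for Msln, 0.161 for Upk3b and 0.0608 for Wt1), and only Wt1 kept its call without QZ1-lo replicate 3 or 4. The type 2 call, Sftpc, was lost without QZ1-lo replicate 1, 2 or 4. Hopx, a type 1 marker at an edgeR adjusted p of 0.0487, lost its call in 7 of 8 fits with a library left out. Tppp3, a ciliated marker, lost it without QZ1-hi replicate 4 or QZ1-lo replicate 2 or 3. Entpd2, an adventitial fibroblast marker, lost it without QZ1-hi replicate 2 or 3 or QZ1-lo replicate 1. No separate test was made of how far these differences carry those of Dpp4, Fap, Prcp and Dpp8.

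Leukocyte transcripts were present although the gate removed CD45 and CD11b. Ptprc, the gene for CD45, was at 131 ± 64.2 CPM in QZ1-hi and 125 ± 30.0 in QZ1-lo libraries (SD, n = 4 each), and the 6 myeloid markers, 0 of them called, summed to 2980, 3448, 3140 and 6353 CPM in QZ1-hi and to 2297, 2820, 2132 and 4203 CPM in QZ1-lo libraries. In both populations the 4 libraries stood in the same order by Dpp7 as by these myeloid markers, replicate 4 being the highest in each. Prcp had the myeloid order in QZ1-lo and its highest level in replicate 4 of both populations. Replicate numbers only name the libraries, so a number found in both populations does not link them. T cell markers, of interest because DPP4 is CD26, were low, at 4.59 to 7.46 CPM summed in QZ1-hi and 5.43 to 16.2 CPM in QZ1-lo, with 0 of 5 called higher and 1 of 5 lower (Cd3g, lost without QZ1-hi replicate 4 or QZ1-lo replicate 1 or 2), and B cell markers were at 0.494 to 2.86 CPM with 0 called. The library with the most Fap in each population, replicate 3, also had the highest summed endothelial, fibroblast, adventitial fibroblast and pericyte markers, but the full order of the libraries by Fap matched that of no marker list. Dpp4 had the adventitial fibroblast order in QZ1-hi and the epithelial order in QZ1-lo libraries. Prep had the T cell order in QZ1-hi and the ciliated order in QZ1-lo libraries. Every member was compared with every marker list in both populations, and the full matches named here are all that were found. With 4 libraries per population, random orders would be expected to give about as many. No match is therefore read as a link between a member and a cell type. These pairings were picked after the values were seen, and their part in the results was not tested.

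**Figure D5:**
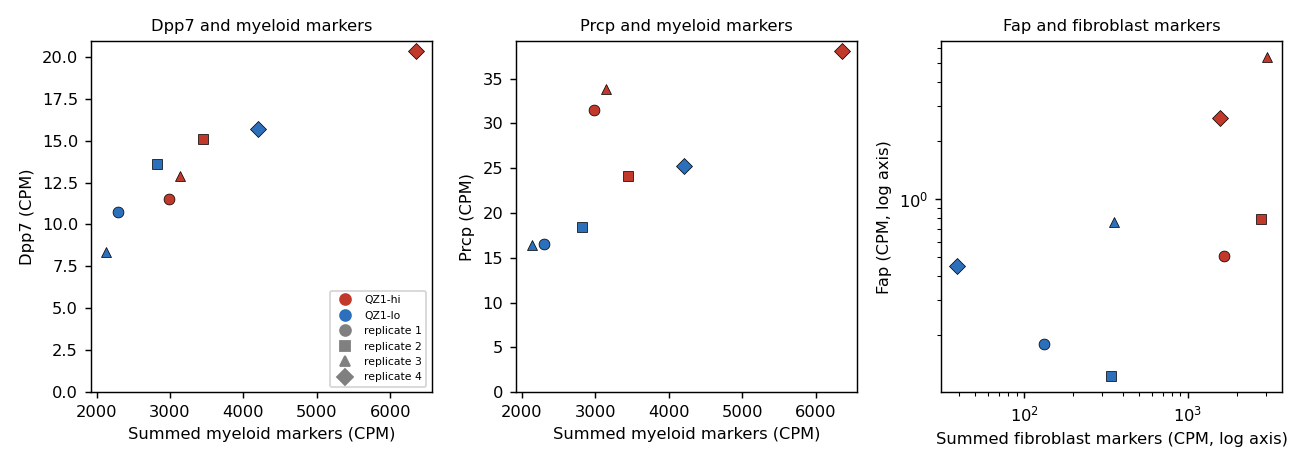
Dpp7 (left) and Prcp (middle) against the summed CPM of 6 myeloid markers, and Fap against the summed CPM of 7 fibroblast markers (right, log axes), 1 point per library with QZ1-hi in red and QZ1-lo in blue. Dpp7 climbs with the myeloid sum within each population, from 8.36 to 20.3 CPM in all, and 3 of 4 QZ1-hi points of Prcp lie above every QZ1-lo point.

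The genes whose levels followed each member most closely over the 8 libraries, by Pearson's r of log2 CPM, differed from member to member. For Dpp4 they were Clec11a (r = 0.997), Arhgef12 (0.996) and Svep1 (0.991), and Clec11a (0.979) and Arhgef12 (0.967) stayed first once the mean of each population was subtracted. Clec11a encodes a secreted growth factor and Svep1 a large extracellular matrix protein, and both were called higher in QZ1-hi, with log2 fold changes of 3.80 and 3.75. For Fap they were Mpped2 (0.956), Prr14 (0.951) and Soga1 (0.949), and for Dpp8 Rarres2 (0.983), which encodes chemerin, Plce1 (0.975) and Gli1 (0.973), a transcription factor of Hedgehog signalling. For Prcp they were Fes (0.976), Gvin1 (0.973) and 9130208D14Rik (0.967). Once the population means were subtracted, Prr14 (0.984) came first for Fap, Lgals3bp (0.979) for Dpp8 and Arhgap19 (0.987) for Prcp. None of the genes named above for Dpp8 or Prcp then stayed among the first 3.

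Dpp7 was followed most closely by Ciao2a (0.993), Gcnt1 (0.985) and Sirpb1a (0.977), and within the populations by Ciao2a (0.991) and Fcer1g (0.991), the gamma chain of Fc receptors of myeloid cells. Prep was followed by Cul4b (0.982), Ifit1bl1 (0.978) and Hdac6 (0.976), and within the populations by Aqp5 (0.983). Aqp5 is listed here as an alveolar type 1 marker, whereas the paper lists it for type 2 cells. It was called lower in QZ1-hi (log2 fold change -0.98, edgeR adjusted p = 0.00139). The closest gene to Dpp9 was Slc26a9 (0.941). These are the highest of 15583 values over 8 libraries that share their populations and depth, and they are given as a description without a test.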

How the data were processed

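Gene counts from bulk RNA-seq of 4 QZ1-hi and 4 QZ1-lo libraries were used. Libraries were made from total RNA with a strand-preserving kit; per the labels the build was mm10, and the deposited raw counts per gene, which the authors obtained with Rsubread, were taken as they stood (their processing notes also name DESeq2). The aligner, gene annotation and strand setting are not given in the sources used here. Entrez identifiers were matched to symbols for 25275 of 27179 genes. Positions came from GENCODE and start-site windows from RefSeq. Genes were kept by filterByExpr (minimum count 10, minimum total 15) and tested with edgeR 4.0.16 (TMM, quasi-likelihood, QZ1-hi against QZ1-lo, no covariate, all 8 libraries) in R 4.3.3. Log2 CPM used a prior count of 2, and ratios within a library an added 0.5 count. Exact permutation tests were two-sided. Intervals are 95% intervals of the fit. Alternatives were DESeq2 1.42.0, limma-voom (limma 3.58.1), other scalings and filters, and leaving out each library. The fits were tested on simulated data. The series describes biological replicates, but which mouse gave which library is not stated. The edgeR and exact permutation tests treated the 8 libraries as independent. Their p-values rest on that, and it would not hold if libraries of opposite populations share a mouse. Named genes were the 7 members, the genes of the lists and, for each member, the 3 genes most correlated with it, before and after subtracting population means. The members and the lists were chosen with earlier results of these data known, so no list is independent evidence.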

Additional observations from a re-analysis of the deposited data

Results flagged for a closer look

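In 70 groups of 4 libraries (35 peptidase, substrate, partner and neighbour genes in both populations), 6 held a library far from the other 3 by Dixon's test, where chance gives about 1 in 20, and none of the 6 was in Dpp4, Fap, Dpp7, Dpp8, Dpp9, Prep or Prcp. Dpp6 was at 0.953 CPM in QZ1-hi replicate 4 and at 0 to 0.0494 CPM in its fellow QZ1-hi libraries. Gsdmd was at 27.2 CPM in the same library and at 19.9 to 20.7 CPM in the others. In QZ1-lo replicate 4, Prepl was at 14.1 CPM where the remaining QZ1-lo libraries held 18.4 to 19.0 CPM, and Kng2 at 16.3 CPM against 23.2 to 24.6 CPM. Cxcl10 was at 4.84 CPM in QZ1-lo replicate 2 against 2.33 to 2.61 CPM. Klkb1 was at 2.03 CPM in QZ1-lo replicate 3 against 0.656 to 0.778 CPM.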

How the results depend on the processing

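Library size scaling had the widest effect. It left 1 of 7 members called in place of 3, raised the related peptidases called from 1 to 2, and moved the log2 fold change of Dpp4 to 0.66, of Prcp to 0.28 and of Prep to -0.90. It reversed Dpp7 to -0.19, Dpp8 to -0.10 and Dpp9 to -0.35; by construction it omits the TMM factors of 0.660 to 1.35. DESeq2 called Fap at 2.62, and without a filter on low counts Dpp8 (0.36) missed the threshold; the cause was not tested. At an adjusted p under 0.01, 1 member (Dpp4) and 0 related peptidases were called. A minimum of 10 counts in every library left 0 related peptidases called and removed Fap, which has no value there. Leaving out 1 library at a time gave 1 to 4 members called and 1 to 2 related peptidases. The log2 fold changes then ranged from 1.03 to 1.23 for Dpp4, 1.74 to 3.19 for Fap, 0.15 to 0.45 for Dpp7, 0.31 to 0.40 for Dpp8, -0.11 to 0.13 for Dpp9 (-0.11 without QZ1-hi replicate 1), -0.59 to -0.30 for Prep and 0.66 to 0.90 for Prcp. The 7 substrates and partners called became 6 to 10 over all alternatives. The 3 ratios kept their sign, and with 1 library left out no exact p can be below 0.0571. No paired analysis was possible because no source used here says which libraries of the opposite populations share a mouse, and replicate numbers here only name the libraries. Depth limits Fap most, with 3 to 93 counts per library.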
